A study of Caenorhabditis elegans with 8 samples.

Results

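Transcripts of 10 subunits of the mitochondrial ATP synthase, chosen by gene identifier from a table of 20871 genes, were followed in whole adult Caenorhabditis elegans after knockdown of mtch-1. The chosen genes are atp-1, atp-2, atp-3, atp-4, atp-5, asb-1, asb-2, F58F12.1, Y82E9BR.3 and the ATP6 gene of the mitochondrial genome (MTCE.12). RNA sequencing covered 4 samples of worms on mtch-1(RNAi) plates, whose bacteria make double-stranded RNA against the gene, and 4 samples of worms on EV plates, whose bacteria carry the empty L4440 vector. Both groups ate HT115 Escherichia coli induced with 5 mM IPTG, on plates with ampicillin and 1 mM IPTG at 20 °C, from hatching on. On day 3 of adulthood about 200 adults were pooled and frozen. No strain or genotype is given in the sources used here, and RNAi by feeding lowers a transcript without removing the gene. Nothing in the labels tells whether the 4 samples of a group came from separate cultures, so each p-value reflects sample-to-sample spread that may be technical.

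ATP synthase is the rotary enzyme of the inner mitochondrial membrane that makes ATP from the proton gradient built by the respiratory chain. Its catalytic F1 head of alpha and beta subunits is joined by a central stalk to a ring of c subunits in the membrane, beside which subunit a forms the proton path, and a peripheral stalk holds the head still. Nearly all subunits come from nuclear genes and are imported, but subunit a is made inside mitochondria from ATP6. In C. elegans the b subunit has a germline form, asb-1, and a somatic form, asb-2.

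Total gene counts were 20626184 to 22748868 in mtch-1(RNAi) samples and 18710833 to 23608608 in EV samples. Levels are given as CPM (counts per 1e6 counts) scaled by TMM, a normalization that takes most genes as not different between samples. The knocked-down gene mtch-1 stood at 47.2 ± 9.92 CPM in mtch-1(RNAi) and 279.5 ± 11.9 CPM in EV (SD, n = 4 each), a log2 fold change of -2.56 (SE 0.12, edgeR adjusted p = 8.62e-08). A gene is called changed when its adjusted p from edgeR's quasi-likelihood test, corrected over all 13252 genes tested, is under 0.05. The lowest count of a chosen gene in any sample was 2132, for asb-2, and counting error was below the spread between samples except for atp-3 and asb-2 in mtch-1(RNAi).

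Of the 10 subunit genes, 8 fell and none rose after mtch-1(RNAi). The 8 were the head genes atp-1 and atp-2, F58F12.1, asb-1, asb-2, atp-5, Y82E9BR.3 and ATP6, and atp-3 and atp-4 did not pass the test. None rose at an unadjusted p under 0.05, in DESeq2 or in limma-voom either. Over all genes tested, 13% were called lower and 10% higher. Among the 2497 tested genes with a mean of at least 100 CPM, a range that holds all 10 subunits, 36.8% were called lower and 7.77% higher. The median log2 fold change of the 10 genes was -0.29, against 0.01 over all genes tested and -0.10 over those of at least 100 CPM. In 9 of the 10, every mtch-1(RNAi) sample lay below every EV sample, as it did for 14.2% of all genes tested and 37.5% of those of at least 100 CPM. With scaling by total counts, an alternative chosen after seeing the data, 998 of all genes were called lower and 2043 higher, against 1728 and 1325 with TMM, and 7 of the 10 subunit genes were called lower. In these bulk samples, fewer cells of a type and less RNA per cell cannot be told apart.

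**Figure D1:**
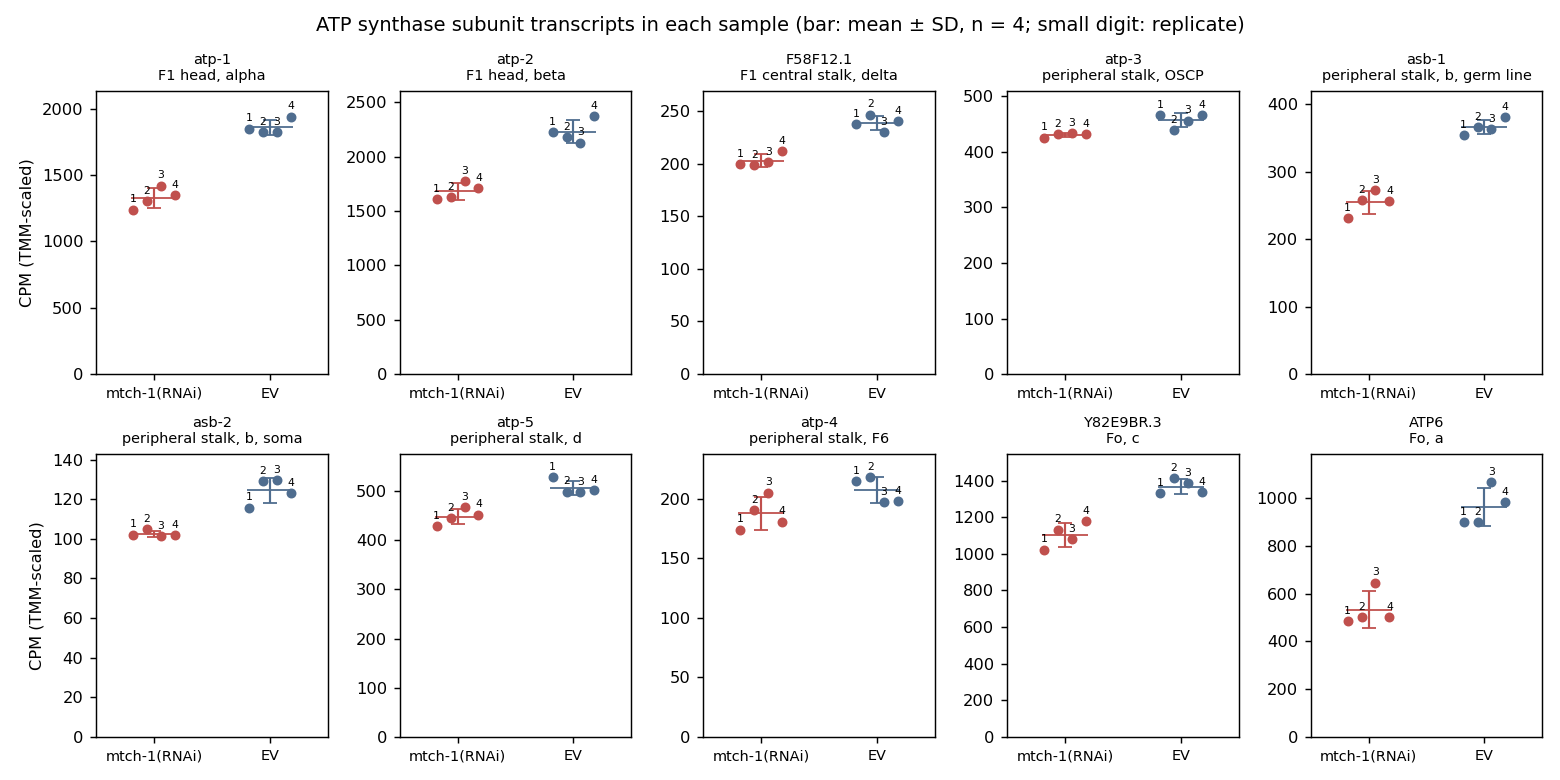
CPM of each ATP synthase subunit gene (vertical axis, from 0) in the 4 mtch-1(RNAi) samples and the 4 EV samples, with mean and SD as bars and the replicate number above each point. The groups overlap for atp-4 and for no other gene shown; in proportion to the level the widest gap is that of ATP6, at 484 to 646.5 CPM in mtch-1(RNAi) and 899 to 1069 CPM in EV.

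Both genes of the catalytic head fell. atp-1 encodes the alpha subunit (H28O16.1, WBcel235 chromosome I, 12652277 to 12654655, plus strand). It had 1240, 1306, 1421 and 1347 CPM in mtch-1(RNAi) replicates 1 to 4, against 1850, 1822, 1821 and 1941 CPM in EV replicates 1 to 4. The groups did not overlap, and replicate 1 was the lowest of the mtch-1(RNAi) samples. The level fell by 28.5%, a log2 fold change of -0.48 (SE 0.05, adjusted p = 9.91e-05). atp-2 encodes the beta subunit, which carries the catalytic sites (C34E10.6, chromosome III, 5228417 to 5230536, plus strand). It had 1609, 1630, 1774 and 1712 CPM in mtch-1(RNAi) samples, against 2228, 2181, 2130 and 2374 CPM in EV samples. The groups again did not overlap, and the level fell by 24.6% (log2 fold change -0.41, SE 0.06, adjusted p = 0.000361).

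Alpha and beta occur in equal numbers in the assembled head, and atp-1 fell slightly more than atp-2. Within each sample, the ratio of atp-1 to atp-2, as counts per base of gene length, was 0.739, 0.769, 0.768 and 0.755 in mtch-1(RNAi) samples, against 0.797, 0.802, 0.820 and 0.784 in EV samples. The log2 ratio was lower by 0.08 in mtch-1(RNAi) (difference -0.08, SE 0.019), and no mtch-1(RNAi) sample reached an EV sample (exact 2-sided permutation p = 0.0286, also 0.0286 adjusted over the 3 ratios computed). This is the smallest p that 4 against 4 samples allow. The ratio was lower in all 4 pairs of samples with the same replicate number, by log2 differences from -0.11 to -0.06.

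F58F12.1, the delta subunit of the central stalk (chromosome II, 6383645 to 6384692, plus strand), fell by a smaller share than the head genes, a difference that was not tested. It had 199, 199, 201 and 212 CPM in mtch-1(RNAi) samples, against 237, 247, 230 and 240.0 CPM in EV samples. The groups did not overlap, the fall was 15%, and the log2 fold change was -0.23 (SE 0.04, adjusted p = 0.00158). Among tested genes of at least 100 CPM, 19.9% had a log2 fold change at or below this value, against 1.92% for atp-1 and 3.92% for atp-2.

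Within the peripheral stalk, both b subunit genes fell, and of the other 3 genes atp-5 fell and atp-3 and atp-4 did not pass. asb-1, the germline b subunit gene (F35G12.10, chromosome III, 4594543 to 4595821, minus strand), had 231, 258, 273 and 256 CPM in mtch-1(RNAi) samples, against 355, 366, 364 and 381 CPM in EV samples. The groups were well apart, and the level fell by 30.5% (log2 fold change -0.52, SE 0.05, adjusted p = 4.5e-05). asb-2, the somatic b subunit gene (F02E8.1, chromosome X, 4469766 to 4471476, plus strand), had 102, 105, 101 and 102 CPM in mtch-1(RNAi) samples, against 115.7, 129, 129.5 and 123 CPM in EV samples. The mtch-1(RNAi) samples lay close together below all EV samples, and the level fell by 17.6% (log2 fold change -0.28, SE 0.04, adjusted p = 0.000969). Both encode related b subunits, and how the counting treated reads that match both is not given in the sources used here.

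The germline gene fell more than the somatic one. Per base of gene length, the ratio of asb-1 to asb-2 was 2.38, 2.59, 2.83 and 2.64 in mtch-1(RNAi) samples, against 3.22, 2.97, 2.95 and 3.25 in EV samples. The groups did not overlap, though mtch-1(RNAi) replicate 3 came close to EV replicate 3. The log2 ratio was lower by a difference of -0.25 (SE 0.064; exact 2-sided permutation p = 0.0286, also 0.0286 adjusted over the 3 ratios). Across the 4 same-numbered pairs the log2 difference ranged from -0.44 to -0.06. For each of the 3 ratios, an exact 2-sided sign-flip permutation test over these pairs gave p = 0.125, which does not pass and is the smallest p that 4 pairs allow.

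**Figure D2:**
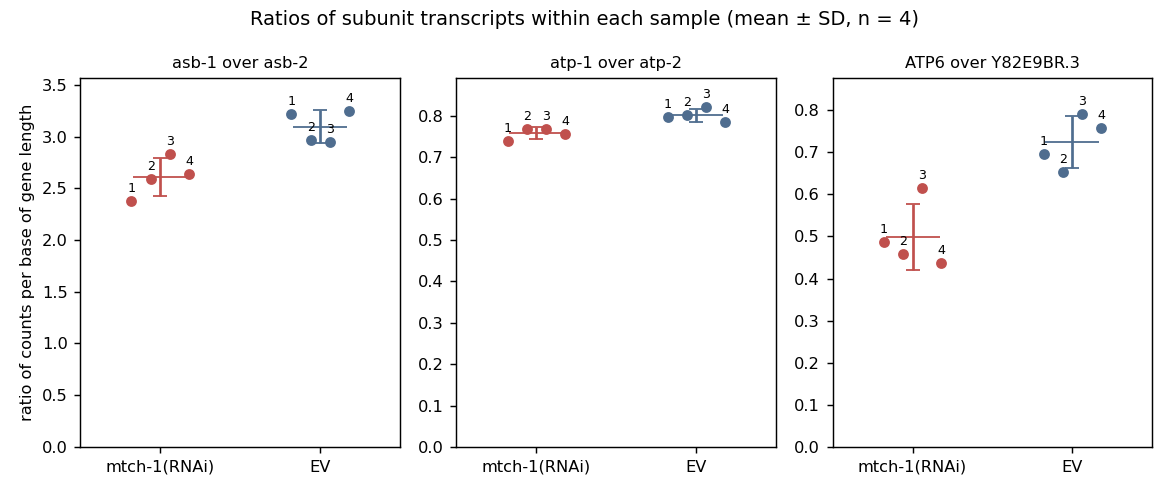
Ratio of counts per base of gene length between pairs of ATP synthase genes within each sample (vertical axes from 0), for 4 mtch-1(RNAi) and 4 EV samples, with mean and SD as bars and replicate numbers above the points. All 3 ratios are lower in every mtch-1(RNAi) sample than in any EV sample, by log2 differences of -0.25, -0.08 and -0.55.

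Most germline markers also fell. Of 14 germline and oocyte markers, 11 fell and none rose (edgeR; likewise none in DESeq2 or limma-voom or at an unadjusted p under 0.05), with a median log2 fold change of -0.25. All 14 lie above 100 CPM, where 36.8% of tested genes were called lower and the median was -0.10. Their summed level was 14990 to 16220 CPM in mtch-1(RNAi) samples and 18020 to 19650 CPM in EV samples, and none was at 0. cpg-1, which encodes an eggshell proteoglycan, fell by a log2 fold change of -0.52, and puf-5, which encodes an RNA-binding protein of oocytes, by -0.15, the lowest and the highest value among the 11. With scaling by total counts, 8 of the 14 were called lower. The muscle actin gene act-4 was the single one of 6 body wall muscle markers to pass the test, as higher (log2 fold change 0.32, adjusted p = 0.0242). The muscle markers summed to 684 to 1038 CPM in mtch-1(RNAi) samples and 633 to 793 CPM in EV samples. With the replicate number as a block, 5 of the 6 muscle markers passed as higher. The block also raised the calls over all 13252 genes tested, to 1983 higher and 2264 lower, from 1325 and 1728 without it. None of 7 intestinal markers passed, with 1 lower and 1 higher at an unadjusted p under 0.05 and also in DESeq2, none in limma-voom, and 3 lower and 1 higher under the block. The intestinal markers summed to 27580 to 33080 CPM in mtch-1(RNAi) samples and 24440 to 30520 CPM in EV samples. Most of this sum came from vit-2 (mean 15940 CPM in mtch-1(RNAi), 15350 CPM in EV) and vit-5 (13600 and 12010 CPM). Their log2 fold changes were 0.05 and 0.18. The other 5 intestinal markers had negative log2 fold changes, from -0.39 for elt-2 to -0.05 for ges-1. None of 6 neuronal markers passed by edgeR, DESeq2 or limma-voom or at an unadjusted p under 0.05, and they summed to 284 to 311.5 CPM in mtch-1(RNAi) samples and 298 to 316 CPM in EV samples. Of 5 hypodermal markers, the cuticle collagen gene dpy-7 rose (log2 fold change 1.1), where 10% of all genes tested were called higher. The other 4 did not pass and had negative log2 fold changes, from -0.42 for dpy-13 to -0.04 for nhr-23. The hypodermal markers summed to 236 to 279 CPM in mtch-1(RNAi) samples and 244.5 to 281 CPM in EV samples. Of the 8 listed sperm markers, msp-142 and msp-56 were not found under these names. The genes gsp-3, gsp-4, spe-9, spe-11 and spe-38 reached at most 0.606 CPM in any sample and were not tested. The only sperm marker tested, spe-41, rose, with 17.5 ± 1.23 CPM in mtch-1(RNAi) and 8.02 ± 0.977 CPM in EV (log2 fold change 1.13). The part of tissue makeup in the changes of asb-1 and the other subunit genes was not tested.

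The remaining genes of the peripheral stalk had log2 fold changes nearest to 0 among the 10. atp-5, the gene of subunit d (C06H2.1, chromosome V, 11122901 to 11123867, minus strand), had 429.5, 445, 467 and 452 CPM in mtch-1(RNAi) samples, against 529, 499, 498 and 502 CPM in EV samples. The groups did not overlap and the level fell by 11.5% (log2 fold change -0.18, SE 0.04, adjusted p = 0.0122). The call was lost with scaling by total counts (-0.10, adjusted p = 0.0964). atp-3, the gene of the oligomycin sensitivity-conferring protein at the top of the stalk (F27C1.7, chromosome I, 5428533 to 5429908, minus strand), had 425, 431, 433 and 432 CPM in mtch-1(RNAi) samples, against 466, 439, 456 and 466 CPM in EV samples. The samples of each group kept apart by a small gap, but the log2 fold change of -0.09 (SE 0.04) did not pass (adjusted p = 0.145). atp-4, the gene of coupling factor F6 (T05H4.12, chromosome V, 6426246 to 6427112, minus strand), had 174, 191, 205 and 181 CPM in mtch-1(RNAi) samples, against 215, 218, 197 and 198 CPM in EV samples. Here the groups overlapped, through mtch-1(RNAi) replicate 3, and the log2 fold change of -0.14 (SE 0.06) did not pass (adjusted p = 0.0895). Leaving out that sample gave a call as lower (-0.19, adjusted p = 0.0276), and so did the replicate number as a block (-0.14, adjusted p = 0.0415). On the same strand, atp-4 overlaps the gene T05H4.11 by 16 bases.

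The membrane part held the gene that changed most. Y82E9BR.3, the c subunit of the rotor ring (chromosome III, 1419196 to 1419869, plus strand), had 1023, 1132, 1082 and 1178 CPM in mtch-1(RNAi) samples, against 1331, 1413, 1388 and 1337 CPM in EV samples. The groups did not overlap and the level fell by 19.3% (log2 fold change -0.31, SE 0.05, adjusted p = 0.00165). The last 15 bases of this gene overlap a gene on the other strand, lelo-2, and strand use in the counting is not given in the sources used here. ATP6, the gene of subunit a (mitochondrial DNA 2634 to 3235, plus strand, a single exon), had 484, 503, 646.5 and 501 CPM in mtch-1(RNAi) samples, against 900.1, 899, 1069 and 985 CPM in EV samples. Every mtch-1(RNAi) sample was far below every EV sample, and replicate 3 was the highest of its group in both groups. The level fell by 44.6% (log2 fold change -0.85, SE 0.09, adjusted p = 7.21e-05). Without that replicate of mtch-1(RNAi) the log2 fold change was -0.96.

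ATP6 fell more than the gene of the c ring, beside which subunit a sits. The ratio of ATP6 to Y82E9BR.3 per base of gene length was 0.486, 0.457, 0.614 and 0.438 in mtch-1(RNAi) samples, against 0.695, 0.654, 0.792 and 0.758 in EV samples. The log2 difference was -0.55 (SE 0.125), with separate groups and an exact 2-sided permutation p = 0.0286, also 0.0286 adjusted over the 3 ratios. In the same-numbered pairs it ranged from -0.79 to -0.37.

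ATP6 fell along with the other tested mRNAs of mitochondrial DNA, but the rRNA genes of the same genome were called higher. Of 12 mitochondrial mRNAs, 11 were tested and all 11 fell, with a median log2 fold change of -0.79, and ND4L was too low to test. Over all genes tested, 13% were called lower, with a median of 0.01. Among those of at least 100 CPM, 36.8% were called lower, with a median of -0.10. Some of the mitochondrial mRNAs, such as ND2, lie below 100 CPM. The mitochondrial rRNA genes had log2 fold changes of 1.26 for MTCE.7 (SE 0.077, adjusted p = 9.92e-07) and 1.51 for MTCE.33 (SE 0.125, adjusted p = 1.21e-05). These rRNA genes were named after their values were seen, and their values in each sample are not given here. Their counts also depend on how the libraries selected RNA, which is not given in the sources used here. ATP6 overlaps the end of ND1 by 2 bases, and ND1 had a log2 fold change of -0.90 (SE 0.08). The next mRNA gene on the other side, ND2, was far lower in abundance, at 25.8 ± 6.97 CPM in mtch-1(RNAi) and 58.6 ± 22.9 CPM in EV. ND2 had the lowest log2 fold change (-1.18, SE 0.26, adjusted p = 0.00612), though its groups overlapped. The smallest falls were those of COX1 (-0.52, SE 0.06) and ND5 (-0.52, SE 0.09). The 9 nuclear subunit genes ranged from -0.52 for asb-1 to -0.09 for atp-3, with a median of -0.28.

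**Figure D3:**
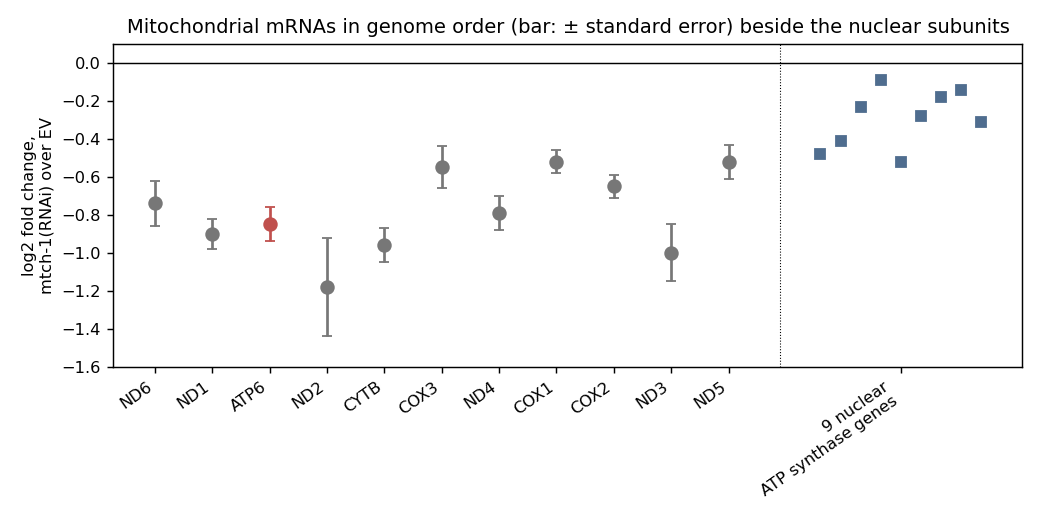
Log2 fold change of the 11 tested mitochondrial mRNAs, mtch-1(RNAi) over EV, in the order of the mitochondrial genome, with standard errors as bars and ATP6 in red; squares on the right are the 9 nuclear ATP synthase genes. ATP6, at -0.85, sits within the range of the mitochondrial mRNAs (-1.18 to -0.52), and all 9 squares lie above it.

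The order of mean transcript levels between subunits was the same in both groups. Levels of different genes are compared here per length, as the FPKM values the authors deposited (fragments scaled to gene length and library size). In mtch-1(RNAi) the highest was Y82E9BR.3 at 1698 ± 103 FPKM and the lowest asb-2 at 80.8 ± 1.47 FPKM, a 21.0-fold range. In EV the same genes stood at 2111 ± 63.3 and 98.4 ± 5.28 FPKM (SD, n = 4 each), a 21.4-fold range. Between them the order of group means was ATP6, atp-2, atp-1, atp-5, atp-3, atp-4, F58F12.1 and asb-1 in both groups. The places that were not distinct differed, however. In mtch-1(RNAi) samples ATP6 (844 ± 120 FPKM) did not differ from atp-2 (823 ± 37.0 FPKM) beyond their spread, and was above it in 1 of 4 samples. In EV samples ATP6 (1529 ± 132 FPKM) was above atp-2 (1095 ± 51.8 FPKM) in 4 of 4. Conversely, asb-1 was below F58F12.1 in every mtch-1(RNAi) sample, at 211 ± 14.8 and 262 ± 7.21 FPKM. In EV samples these genes could not be ordered, at 304 ± 9.62 FPKM for asb-1 and 309.5 ± 8.84 FPKM for F58F12.1. The FPKM ranges of atp-4 and F58F12.1 overlapped in both groups, but within samples atp-4 was the higher one in 4 of 4 mtch-1(RNAi) samples and 3 of 4 EV samples. The level of ATP6 against nuclear genes also depends on how the libraries selected RNA, which is not given in the sources used here.

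**Figure D4:**
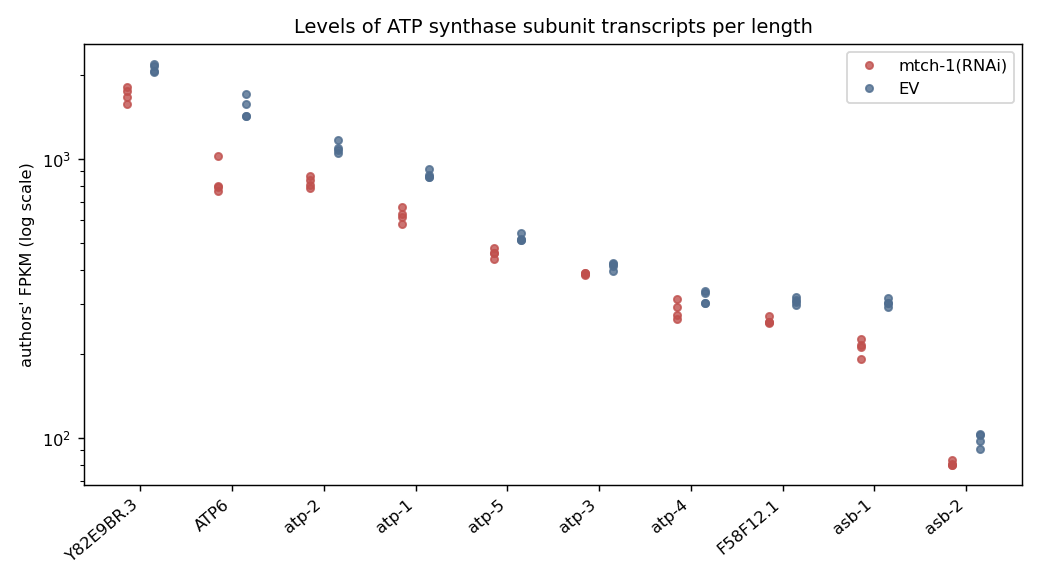
The authors' FPKM values of the 10 subunit genes in each sample (log axis), mtch-1(RNAi) left and EV right of each position, ordered by the EV mean. Levels run from 1698 FPKM for Y82E9BR.3 to 80.8 for asb-2 in mtch-1(RNAi), and ATP6 overlaps atp-2 there.

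The 10 genes together took 0.643% ± 0.0261 of all counts in mtch-1(RNAi) and 0.810% ± 0.0143 in EV (SD, n = 4 each). The single samples ranged from 0.618% to 0.677% in mtch-1(RNAi) and from 0.796% to 0.826% in EV. Within mtch-1(RNAi), replicate 1 was the lowest sample for 8 of the 10 genes and replicate 3 the highest for 7. In EV no replicate had more than 5 of the lowest or 3 of the highest values. The same tally over all genes tested is not given here, so these counts are not a trait of the subunit genes in particular. The coefficient of variation between samples was 0.780% to 7.18% in mtch-1(RNAi) and 2.81% to 5.33% in EV for the nuclear genes. For ATP6 it was 14.2% in mtch-1(RNAi) and 8.45% in EV, where the mean counts alone would give 0.920% and 0.720%.

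The genes whose profiles were closest to atp-1, asb-1 and ATP6 were named from 8534 genes with a mean of at least 5 CPM. Likeness was the root-mean-square difference of centred log2 CPM over the 8 samples, which takes in the difference between groups, and it carries no test. For atp-1 the 5 nearest were elpc-1 (0.032), gars-1 (0.034), npp-15 (0.034), the malate dehydrogenase gene mdh-2 (0.035) and asb-1 (0.035), and atp-2 came in place 10 (0.046). For asb-1 they were elpc-1 (0.030), the mitochondrial gene COX1 (0.031), atp-1 (0.035), clec-65 (0.037) and npp-15 (0.038). For ATP6, 4 of the 5 were mitochondrial mRNAs, namely ND1 (0.056), ND4 (0.084), CYTB (0.102) and COX2 (0.138), and the other one was rgs-9 (0.111) on chromosome X. The nearest nuclear subunit gene to ATP6 was asb-1, in place 44 (0.197). From atp-1, asb-1 and atp-2 were the nearest of the subunit genes, and atp-3 was in place 2481 (0.206).

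A second list held 10 further genes tied to the enzyme: hpo-18 (subunit epsilon), asg-1 and asg-2 (homologs of the small membrane subunit g), the ATPase inhibitor genes mai-1 and mai-2, and 5 genes known here by sequence name. Those 5 were listed as subunits gamma (Y69A2AR.18), epsilon (R05D3.6), e (R04F11.2) and f (R53.4) and as an assembly factor (Y116A8C.27). The annotation used here gives no product names, so the roles on this list were not checked. Of the 9 tested, 4 fell and none rose, with a median log2 fold change of -0.14. Most of the 9 lie at or above 100 CPM, where 36.8% of tested genes were called lower with a median of -0.10, so this count is near the background. None rose in DESeq2 or limma-voom or at an unadjusted p under 0.05, and scaling by total counts left 2 that fell. asg-1 was at 181, 204, 196 and 192.5 CPM in mtch-1(RNAi) samples, against 246, 252, 243 and 239.9 CPM in EV samples, and fell by 21.2% (log2 fold change -0.34, SE 0.04, adjusted p = 0.000237). Its paralog asg-2 did not pass (-0.11, SE 0.05, adjusted p = 0.118).

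R53.4 (-0.20, adjusted p = 0.00415) and R04F11.2 (-0.22, adjusted p = 0.00883) also fell, and R04F11.2 lost its call with scaling by total counts (-0.15, adjusted p = 0.05). Genes on the other strand overlap R04F11.2 by 67 bases and asg-1 by 18 bases, so a part of their reads could be shared. Y116A8C.27 was called lower (-0.27, adjusted p = 0.0406), a call that was lost in 10 of 15 alternatives, among them 7 of the 8 in which 1 sample was left out (all but mtch-1(RNAi) replicate 2; adjusted p 0.0694 to 0.109 in those 7), and genes on the other strand overlap it. Y69A2AR.18 stood at 612.6 ± 7.14 CPM in mtch-1(RNAi) and 610.3 ± 23.3 CPM in EV (0.01, SE 0.04, adjusted p = 0.946). hpo-18 (-0.09, SE 0.08) did not pass. The inhibitor genes did not pass either: mai-2 was at -0.14 (SE 0.05, adjusted p = 0.0605), and mai-1, a low gene of 8.71 ± 1.19 CPM in mtch-1(RNAi) and 7.27 ± 1.4 CPM in EV, was at 0.26 (SE 0.16, adjusted p = 0.273). On the same strand, mai-1 overlaps gpd-2 by 22 bases, and gpd-2 rose (log2 fold change 0.37, edgeR adjusted p = 0.00162). For mai-2, DESeq2 (adjusted p = 0.0494), the block (adjusted p = 0.0319) and leaving out mtch-1(RNAi) replicate 2 (adjusted p = 0.0371) each gave a call as lower. R05D3.6 was too low to test, with 3, 8, 7 and 5 counts in mtch-1(RNAi) samples and 46, 9, 3 and 1 counts in EV samples.

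**Figure D5:**
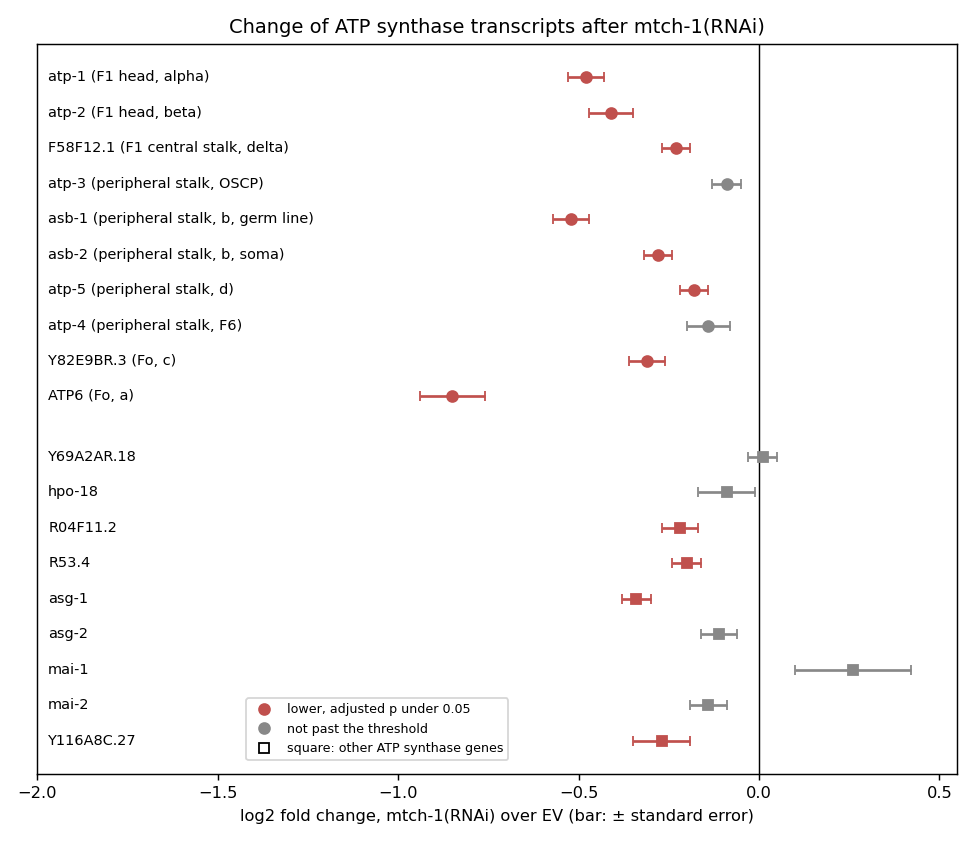
Log2 fold change of each gene, mtch-1(RNAi) over EV, with its standard error; circles are the 10 subunit genes in order of their place in the enzyme and squares are other ATP synthase genes, in red where called lower. The circles lie between -0.85 (ATP6) and -0.09 (atp-3), and all are left of 0.

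The adenine nucleotide translocase exchanges the ATP made by the enzyme for ADP from the cytosol. Its gene ant-1.1 had 2154, 2246, 2320 and 2187 CPM in mtch-1(RNAi) samples, against 2684, 2728, 2661 and 2747 CPM in EV samples, and fell by 17.7% (log2 fold change -0.28, SE 0.05, adjusted p = 0.00177). Of the 5 genes on a list of ATP and phosphate carriers, ant-1.2 and ant-1.4 were too low to test, ant-1.3 did not pass (0.20, SE 0.30), and F01G4.6 fell (-0.24, SE 0.05, adjusted p = 0.00227). Thus 2 of 3 tested genes of the list were called lower, both above 100 CPM, where 36.8% of tested genes were.

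The authors' deposited table gives log2 fold changes for the 10 subunit genes from -0.86 for ATP6 to -0.09 for atp-3. By its adjusted p-values, atp-3 (0.0659) and atp-4 (0.089) are the 2 of the 10 that stay above 0.05, and the other 8 range from 1.8e-19 for atp-1 to 0.000485 for atp-5.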

How the data were processed

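Per the file headers, the authors deposited 1 table with read counts per gene, a normalized signal (the count over 1 size factor per sample, with its group means), FPKM values, gene lengths, and, from their own comparison, a log2 fold change, a p-value and an adjusted p-value per gene. Per the submitters' processing notes, the tools were featureCounts 1.5.0-p3, HISAT2 2.0.5 and DESeq2, and the build was WBcel235. Of the 20871 genes, 20525 were named through RefSeq; coordinates come from Ensembl's WBcel235 annotation. No column of per-sample values was left without a sample. No sequences were used here.

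Counts were tested in R 4.3.3 with edgeR 4.0.16, using TMM scaling, quasi-likelihood F tests, the default expression filter and Benjamini-Hochberg adjustment. The SE is the log2 fold change over the square root of F. Ratios were tested by exact permutation in SciPy 1.17.1. Same-numbered samples deviated together from their group means (correlations 0.399, 0.244, 0.279 and 0.227 for replicates 1 to 4, each over the limit of 0.1). The highest correlations with another number were lower, at -0.0596, 0.103, 0.181 and 0.0849, but those of replicates 2 and 3 also passed the limit. The numbers may thus pair the samples, which the labels do not state. The main fit has no block, and the block is given as an alternative. Alternatives used DESeq2 1.42.0, limma-voom (limma 3.58.1), other scalings and filters, the replicate block and leaving out each sample. The scripts were tested on simulated data. The members and lists were chosen with earlier results of these data known. Named genes are mtch-1, all members, the second ATP synthase list, the extremes of each list's calls and the nearest profiles. ND1, COX1, the rRNA genes, gpd-2 and the sperm markers were named after their values were seen. The same holds for the markers vit-2, vit-5, elt-2, ges-1, dpy-13 and nhr-23.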

Additional observations from a re-analysis of the deposited data

Results flagged for a closer look

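ATP6 in mtch-1(RNAi) replicate 3, at 646.5 CPM, stood apart from the other 3 samples of its group, which lay between 484 and 503 CPM. atp-5 in EV replicate 1, at 529 CPM, stood apart from the other EV samples, at 498 to 502 CPM. Both exceeded Dixon's 95% critical value for 4 samples, with gaps of 0.880 and 0.872 of the group's range. These were 2 of 46 groups of values tested, and chance alone flags about 1 in 20. ATP6 stayed called lower without that sample (log2 fold change -0.96), and atp-5 stayed called lower without EV replicate 1 (-0.15).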

How the results depend on the processing

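Over 15 alternatives each, the 10 members kept a negative log2 fold change in all of them, and 147 of the 150 values stayed on their side of the threshold. The exceptions were atp-5 with scaling by total counts (-0.10, no longer called) and atp-4 with the replicate block (-0.14, called) and without mtch-1(RNAi) replicate 3 (-0.19, called; -0.19 to -0.11 over the left-out samples); the cause was not tested. The number of members called lower was 7 to 9 over all alternatives, 8 to 9 when a sample was left out and 9 with the replicate block. Scaling by total counts, chosen after seeing the data, moved the calls over all genes to 998 lower and 2043 higher. It raised the log2 fold changes of single genes by a median of 0.073 and left 2 of the second ATP synthase list called lower. The log2 fold change of Y69A2AR.18, near 0 throughout, was 0.00, just below 0, without mtch-1(RNAi) replicate 1 and -0.01 without EV replicate 2, and ranged from -0.01 to 0.02 when a sample was left out. The replicate block changed no other call of a member; over all genes it gave 2264 lower and 1983 higher. The differences in log2 ratio were -0.29 to -0.20 for asb-1 over asb-2, -0.09 to -0.07 for atp-1 over atp-2 and -0.65 to -0.49 for ATP6 over Y82E9BR.3 when a sample was left out; with the replicate numbers as pairs they were -0.25, -0.08 and -0.55 and no longer passed (exact sign-flip p = 0.125, the smallest that 4 pairs allow). Depth did not limit the members, whose lowest count was 2132. R05D3.6, ND4L, ant-1.2 and ant-1.4 were too low to test.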
